A study of Mus musculus with 4 samples.

Results

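Interferon-stimulated genes are the genes that a cell switches on when it senses a type I, II or III interferon. The set followed here comprised 49 such genes, listed by symbol and found by that symbol in the normalized count table of lung cells from *Tet3* mutant and control mice. All 49 were among the 21462 genes of the table, and all 49 reached a mean of at least 10 normalized counts over the 4 libraries, the level required for testing, as did 16659 genes in all. The TET3 protein oxidizes methylated cytosines of DNA, a step in removing the methyl mark.

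The 2 *Tet3* mutant libraries came from Tet3 fl/fl mice that carried a tamoxifen-inducible Cre driven by the α-smooth-muscle actin promoter and a ROSA26 tdTomato reporter, on a C57BL/6 background. The 2 control libraries came from mice without the floxed allele. The paper describes its controls in general as carrying the Cre, the reporter or both, and tdTomato-positive cells can be sorted only where both are present. Mice of both groups received tamoxifen as young adults. Lungs were dissociated, leukocytes and erythroid cells were depleted with antibodies to CD45 and Ter-119, and live tdTomato-positive cells were sorted, so that any cell with an active α-smooth-muscle actin promoter at the time of tamoxifen could be labelled. The study describes its replicates as independent animals, and the labels do not state age at sampling or sex. The comparison asks whether loss of *Tet3* in smooth muscle altered the transcripts of the interferon response.

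*Tet3* itself, the targeted gene, was at 1847 and 1926 normalized counts in the controls, taken in the order 1 and 2 here and throughout, and at 1534 and 1444 in the mutants, a log2 fold change of -0.34 (SE 0.10, limma adjusted p = 0.681). Control 2 stood apart from the other 3 libraries: *Xist* was at 2 normalized counts there against 5214 to 6781 elsewhere, and the Y-linked *Ddx3y* was at 774 there and at 0 in the others. Results that moved by over 1.5 times when this library was left out are therefore given with and without it. Without it the comparison is control 1 against both mutants, and sex-linked expression and any other property of control 2 cannot be told apart. Reads on genes were estimated at 6.32 M to 7.56 M per library. The sorted cells expressed smooth muscle markers, with a median of 175 normalized counts per kilobase of exon over 10 genes, but the median was 285 for 8 endothelial markers, 274 for 13 macrophage markers and 664 for 6 alveolar type 2 cell markers, so RNA of other lung cells was present in quantity. In such bulk libraries, fewer cells of a type and less RNA per cell cannot be told apart.

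Type I interferons bind the IFNAR receptor and, through the kinases JAK1 and TYK2, lead to a complex with STAT2 and IRF9 that binds the interferon-stimulated response element (ISRE). Interferon-γ signals through JAK1 and JAK2 to the GAS element, and it induces IRF1, a second activator of many of the same genes. The products block viral RNA and proteins, restrict intracellular pathogens and raise antigen presentation on MHC class I. Most cells of the lung can respond, and T and NK cells are the main source of interferon-γ.

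Promoters of 4 members are shown because each carries the letters of the ISRE or of the GAS element. Each is the 250 bases before the transcription start in the RefSeq table for GRCm38.p6, 5′ to 3′ on the strand of the gene, with matches to the ISRE letters GAAANNGAAA on either strand in capitals for the first 3 and a match to the GAS letters TTCNNNGAA in capitals for the last.
*Isg15* (chr4:156200819-156201068, minus strand): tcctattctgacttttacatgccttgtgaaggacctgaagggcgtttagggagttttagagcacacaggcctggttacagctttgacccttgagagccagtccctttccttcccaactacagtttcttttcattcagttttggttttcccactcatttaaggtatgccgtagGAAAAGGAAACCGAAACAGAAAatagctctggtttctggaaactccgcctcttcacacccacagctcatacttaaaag
*Irgm1* (chr11:48871421-48871670, minus strand): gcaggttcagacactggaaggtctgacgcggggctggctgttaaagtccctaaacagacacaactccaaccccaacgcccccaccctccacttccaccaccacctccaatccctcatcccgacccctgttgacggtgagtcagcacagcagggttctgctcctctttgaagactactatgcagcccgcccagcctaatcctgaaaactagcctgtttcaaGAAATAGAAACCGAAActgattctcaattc
*Gbp3* (chr3:142559794-142560043, plus strand): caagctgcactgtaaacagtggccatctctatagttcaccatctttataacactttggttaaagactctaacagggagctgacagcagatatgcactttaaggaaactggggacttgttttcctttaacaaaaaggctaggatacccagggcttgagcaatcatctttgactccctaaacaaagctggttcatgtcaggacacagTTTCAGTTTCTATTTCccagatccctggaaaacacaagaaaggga
*Irf1* (chr11:53769764-53770013, plus strand): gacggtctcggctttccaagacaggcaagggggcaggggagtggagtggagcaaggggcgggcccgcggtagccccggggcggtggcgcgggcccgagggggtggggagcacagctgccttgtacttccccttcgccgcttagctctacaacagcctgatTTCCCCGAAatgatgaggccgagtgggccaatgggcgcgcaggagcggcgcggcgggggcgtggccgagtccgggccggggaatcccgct
The first 3 were taken for their number of ISRE matches and, among ties, for level. *Irf1* was added after its values were seen, since it was level in all 4 libraries. In *Isg15*, which encodes a ubiquitin-like protein, the 3 matches overlap in one run (GAAAAGGAAA, GAAACCGAAA and GAAACAGAAA) that begins 78 bases before the start. In *Irgm1* the 2 matches overlap and begin 30 bases before the start, and in *Gbp3* the 2 matches read on the opposite strand and begin 45 bases before it. The *Irf1* promoter held the GAS match TTCCCCGAA 90 bases before the start, and no ISRE letters.

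RefSeq promoters of 300 bases (250 before to 50 after the start) were matched by symbol for 36 of the 49 members, in 41 promoters. The ISRE letters, counted on both strands with overlapping matches allowed, stood in 19 of these 41 promoters (46.3%), against 3.44% of all 32851 promoters of the table. The GAS letters stood in 10 of the 41 (24.4%), against 8.3% of all promoters. A match describes the letters in this window and is not evidence of binding. Among members with a promoter, the median log2 fold change between mutant and control was 0.52 for the 18 with an ISRE match and 0.23 for the 18 without. Without control 2 those medians were 0.16 and 0.08. Control 2 lay below the mean of the other 3 libraries by a median log2 difference of -0.84 in members with a match and of -0.34 in members without. The sets overlapped: the members with a match included *Oas3* (-1.99), and those without included both *Irf1* (0.00) and *Ifi47* (-1.10), *Oasl2* (-0.95) and *Irf7* (-0.78).

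**Figure D1:**
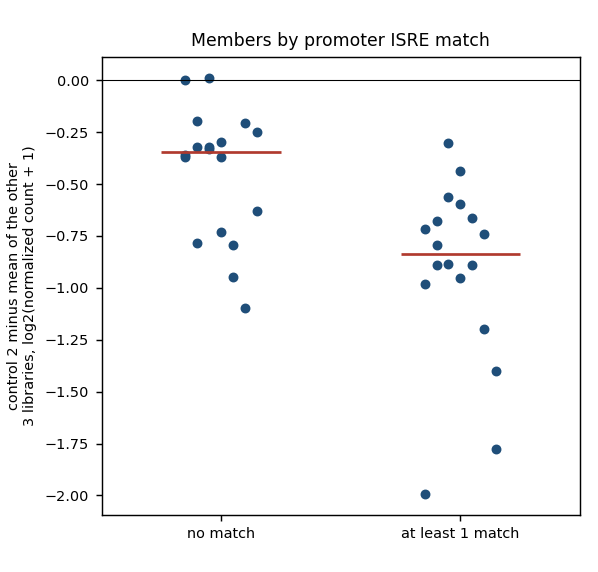
Each point is 1 of 36 interferon-stimulated genes, placed by whether its RefSeq promoter held the ISRE letters; the vertical axis is its log2(normalized count + 1) in control 2 minus the mean of the other 3 libraries, and red lines are medians. The 18 genes with a match centre on -0.84 and the 18 without on -0.34, with overlap between the sets.

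Over all 49 members, the mutant libraries were on the whole higher than the control libraries, but most of that difference went with one control. Summed over the members, controls 1 and 2 held 20777 and 15573 normalized counts and mutants 1 and 2 held 21549 and 21918. Control 1 was thus close to the mutants and control 2 was the low library. The median log2 fold change of the members was 0.32 (quartiles 0.21 and 0.53), with 47 of 49 above 0 (95.9%), whereas the median over all genes tested was -0.01 with 49.0% above 0. Without control 2 the members' median was 0.10 with 33 of 49 above 0 (67.3%), and that of all genes was -0.01 with 46.7% above 0. Control 2 was the lowest library for 47 members (95.9%), against 33.1% of all genes tested. The exceptions were *Irf1*, lowest in mutant 2, and *Trim25*, lowest in mutant 1. The highest library was mutant 2 for 23 members, mutant 1 for 21 and control 1 for 5, and it was never control 2.

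No member passed the test. At a limma adjusted p under 0.05, 0 of the 49 members and 0 of the 16659 genes tested (0%) differed between mutant and control, and the members' adjusted p lay between 0.681 and 0.974. At an unadjusted p under 0.05, 1 member (*Gbp2*) was higher in the mutants, against 3.83% of all genes, and 0 members were lower, against 2.85% of all genes. The members' median log2 fold change was 0.66 without control 1 and 0.10 without control 2. In 23 members (46.9%) both mutants exceeded both controls, against 19.6% of all genes, and in 0 members both mutants lay below both controls, against 19.5% of all genes. Control 1 alone lay below both mutants in 23 members as well, where 32.5% of all genes did so. The standard error of the members' log2 fold change had a median of 0.27 against 0.22 over all genes, so this design could resolve only sizeable changes. The 95% interval of the fold change ended below a 1.5-fold increase for 11 members, against 9128 of the 16659 genes tested. It ended below a 2-fold increase for 23 members, against 12702 of the genes tested. A fold above 1.5 was reached by 7 members with all 4 libraries and by 0 without control 2.

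The 2 controls differed by more than the 95% range of their counting error in 36 members (73.5%), against 46.9% of all genes, and the 2 mutants did so in 18 members (36.7%), against 30.8% of all genes. That range covers counting error alone and treats each read as a separate molecule. PCR copies of one molecule were not told apart, so the range may be too narrow and these shares too high. The replicates of a group were therefore further apart among the controls than among the mutants for this set of genes.

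**Figure D2:**
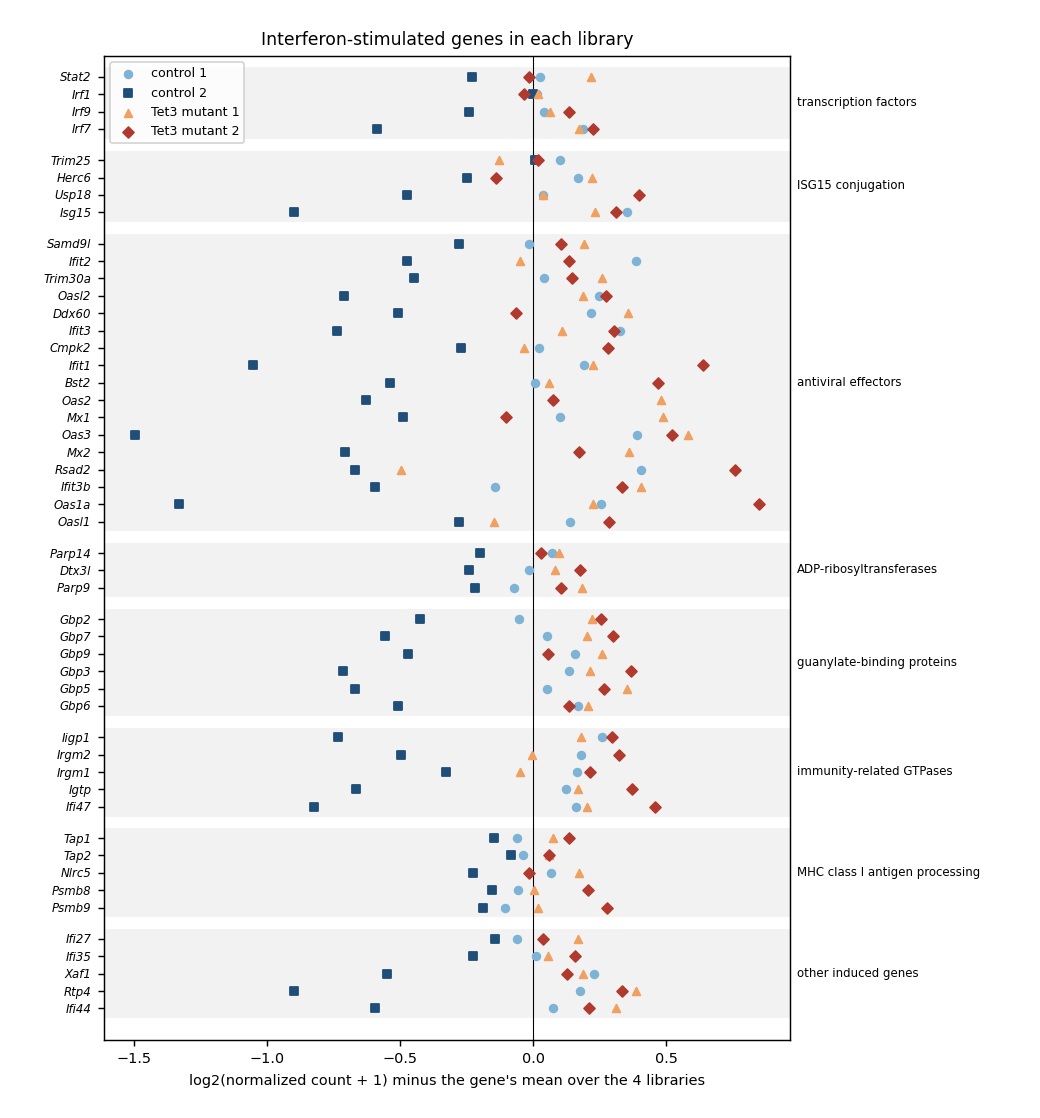
Each row is an interferon-stimulated gene, grouped by role and ordered by level, and each point is 1 library; the horizontal axis is log2(normalized count + 1) minus the gene's mean over the 4 libraries. Control 2 (dark squares) is leftmost in 47 of 49 rows, while control 1 lies left of both mutants in 23 and is rightmost in 5.

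The transcription factors of the response had a median of 0.20 in log2 fold change, and 0.04 without control 2. *Irf1*, the interferon-γ-responsive activator whose promoter is printed above, was at 750 and 742 normalized counts in the controls and at 751 and 725 in the mutants. The groups overlapped and the 4 libraries lay within a narrow range, with a log2 fold change of -0.02 (95% interval -0.28 to 0.25). This estimate changed sign when libraries were scaled to equal totals (0.03) or quantile normalized (0.02). *Irf9*, the DNA-binding subunit of the type I complex, had 658 and 541 in the controls and 668 and 703 in the mutants. The groups did not overlap, by a margin set by control 1, and the log2 fold change was 0.20 (SE 0.14), and 0.06 without control 2. *Stat2*, its partner, had 872 and 732 in the controls and 997 and 849 in the mutants, with overlapping groups and a log2 fold change of 0.20 (SE 0.15), and 0.08 without control 2. *Irf7*, which amplifies interferon production, had 245 and 143 against 243 and 252, so that control 2 alone was low. Its log2 fold change was 0.40 with all libraries and 0.01 without control 2.

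Genes of ISG15 conjugation were split. *Trim25*, a ubiquitin ligase of RNA sensing, had 1072 and 1005 normalized counts in the controls and 915 and 1012 in the mutants. The groups overlapped, and its log2 fold change of -0.11 (SE 0.11) was the lowest of the 49 members with all 4 libraries. *Herc6*, the mouse ligase that attaches ISG15, had 379 and 284 in the controls and 394 and 306 in the mutants. Mutant 2 lay between the controls, and the log2 fold change was 0.08 (SE 0.21) with all libraries and -0.13 without control 2. *Usp18*, the protease that removes ISG15 and dampens receptor signalling, had 190 and 133 in the controls and 190 and 244 in the mutants. Control 1 and mutant 1 were equal, and the log2 fold change was 0.44 (SE 0.25), and 0.18 without control 2. *Isg15* itself was scarce, at 37 and 15 in the controls and 34 and 36 in the mutants, and only control 2 was low, with a log2 fold change of 0.55 (SE 0.51), and -0.08 without control 2. The median of these 4 genes was 0.26, and -0.10 without control 2.

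The 17 antiviral effectors all had a log2 fold change above 0, between 0.09 and 1.10 with a median of 0.41, and control 2 was the lowest library for all 17. In 6 of the 17 both mutants exceeded both controls, against 19.6% of all genes. Without control 2 the median was 0.10 and 11 of 17 were above 0. *Samd9l*, an interferon-induced restrictor of viral growth and cell proliferation, was the most abundant, at 1088 and 907 normalized counts in the controls and 1256 and 1183 in the mutants. The groups did not overlap, and the log2 fold change was 0.29 (SE 0.13), and 0.16 without control 2. *Ifit2*, which binds viral RNA, had 748 and 412 in the controls and 553 and 628 in the mutants. Both mutants lay between the controls, and its log2 fold change was 0.09 (SE 0.30) with all libraries and -0.34 without control 2, the lowest of any member. *Trim30a*, a dampener of Toll-like receptor signalling, had 503 and 358 in the controls and 585 and 541 in the mutants. Its groups did not overlap, with a log2 fold change of 0.41 (SE 0.19), and 0.16 without control 2. *Ifit3b*, a scarce relative of *Ifit2*, had 55 and 40 in the controls and 81 and 77 in the mutants. The groups did not overlap and the log2 fold change was 0.74 (SE 0.29), the member with the largest value without control 2 (0.51).

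The largest fold changes with all libraries belonged to genes of low to moderate level in which control 2 fell far below the rest. *Oas3*, an oligoadenylate synthetase that activates RNase L, had 84 and 22 normalized counts in the controls and 96 and 92 in the mutants. The log2 fold change was 1.10 (SE 0.64), and 0.16 without control 2. *Oas1a*, of the same family, had 50 and 16 against 49 and 76, with a log2 fold change of 1.08 (SE 0.61), and 0.28 without control 2. *Ifit1*, which binds RNA lacking a self-type cap, had 200 and 84 against 205 and 273, a log2 fold change of 0.86 (SE 0.44) that was 0.24 without control 2. *Rsad2*, which encodes viperin, went another way, with 81 and 38 in the controls and 43 and 104 in the mutants. Here the mutants differed from each other by more than the controls did. The log2 fold change was 0.27 (SE 0.58), and -0.27 without control 2. *Mx1*, a GTPase that blocks viral nucleocapsids, had 136 and 90 against 178 and 118, with overlapping groups. Its log2 fold change was 0.39 (SE 0.32), and 0.09 without control 2.

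**Figure D3:**
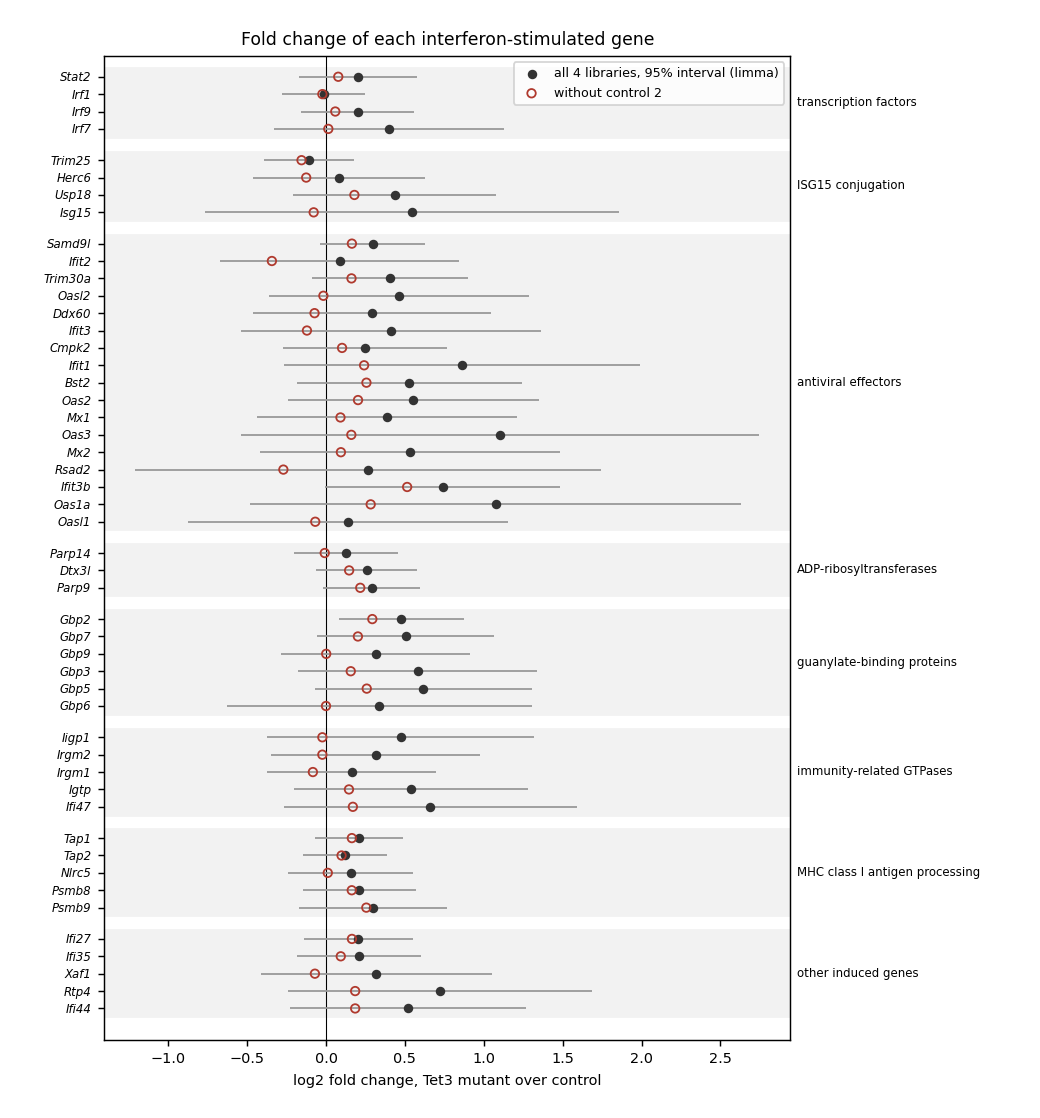
Log2 fold change of each interferon-stimulated gene, mutant over control, with all 4 libraries (filled points, lines are limma 95% intervals) and without control 2 (open circles). The interval of *Gbp2* alone stays above 0, and for most genes the open circle lies nearer to 0, with the members' median moving from 0.32 to 0.10.

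The 3 genes of ADP-ribosylation lie together within 139.7 kb of chromosome 16 (35832874 to 35972605, GRCm38) and had modest differences. *Parp9* had 534 and 483 normalized counts in the controls and 638 and 604 in the mutants. *Dtx3l*, the ubiquitin ligase that pairs with PARP9, had 870 and 745 in the controls and 932 and 995 in the mutants. In both genes the groups did not overlap, with log2 fold changes of 0.29 (SE 0.12) for *Parp9* and 0.26 (SE 0.13) for *Dtx3l*. Without control 2 they were 0.22 and 0.15. *Parp14*, a mono-ADP-ribosyltransferase and the member with the highest normalized counts, had 1711 and 1419 in the controls and 1742 and 1661 in the mutants. Mutant 2 lay below control 1, and the log2 fold change was 0.13 (SE 0.13), and -0.01 without control 2. *Parp9* and *Dtx3l* overlap at their ends, so their values are uncertain to the extent that reads in the overlap were left out of counting.

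The guanylate-binding proteins, GTPases that coat vacuoles of intracellular pathogens, had a median of 0.49 in log2 fold change, from 0.31 to 0.62, and 0.18 without control 2. *Gbp2* had 722 and 559 normalized counts in the controls (mean 640.5 ± 115, SD) and 874 and 896 in the mutants (885 ± 15.6, SD). The mutants lay close together and above both controls, and the log2 fold change was 0.48 (SE 0.15, 95% interval 0.08 to 0.87), with an unadjusted p of 0.0267 and an adjusted p of 0.681 in limma. Without control 2 it was 0.29. *Gbp7* had 682 and 448 in the controls and 758 and 812 in the mutants, again without overlap, and a log2 fold change of 0.50 (SE 0.22), and 0.20 without control 2. *Gbp9* had 629 and 407 in the controls and 676 and 586 in the mutants. Mutant 2 lay below control 1, and the log2 fold change of 0.31 (SE 0.23) was 0.00 without control 2. The groups did not overlap in *Gbp3* (429 and 238 against 453 and 505), whose promoter is printed above. Nor did they in *Gbp5* (241 and 146 against 297 and 280), which is needed for inflammasome assembly. *Gbp2*, *Gbp3*, *Gbp5* and *Gbp7* lie in one cluster on chromosome 3 (142493978 to 142638008) and their log2 fold changes ranged from 0.48 to 0.62, and from 0.16 to 0.29 without control 2. *Gbp6* and *Gbp9* lie in the cluster on chromosome 5 (105077630 to 105293698), at 0.31 to 0.34, and at 0.00 for both without control 2. Members of these clusters are close relatives, and reads that mapped to several of them were excluded by the authors.

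The immunity-related GTPases, which act on pathogen vacuoles in mice, were all lowest in control 2. *Iigp1*, an effector of the family, had 812 and 407 normalized counts in the controls and 767 and 832 in the mutants. Mutant 1 lay below control 1, and the log2 fold change was 0.47 (SE 0.33) with all libraries and -0.02 without control 2. *Irgm2*, a regulator of the family, had 705 and 440 in the controls and 619 and 777 in the mutants. Its groups overlapped, with a log2 fold change of 0.32 (SE 0.26) that was -0.02 without control 2. *Irgm1*, another regulator, had 505 and 359 in the controls and 435 and 522 in the mutants. Mutant 1 again lay between the controls, with a log2 fold change of 0.16 (SE 0.21), and -0.08 without control 2. *Igtp* had 289 and 167 in the controls and 298 and 343 in the mutants, without overlap, and a log2 fold change of 0.54 (SE 0.29), or 0.15 without control 2. *Igtp* and *Irgm2* overlap on chromosome 11 (58199556 to 58222782), on the same strand, and reads that lay in both were left out by the authors, so their values are uncertain in the overlap. Over the 5 genes the median was 0.47, and -0.02 without control 2.

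The genes of MHC class I antigen processing kept a similar median without control 2. All 5 genes had a log2 fold change above 0 both with that library (median 0.21) and without it (median 0.16), and in 4 of 5 both mutants exceeded both controls, against 19.6% of all genes. *Tap1*, a subunit of the peptide transporter, had 652 and 613 normalized counts in the controls and 715 and 746 in the mutants. *Tap2*, the other subunit, had 659 and 639 in the controls and 706 and 705 in the mutants. Neither gene's groups overlapped, and the log2 fold changes were small, at 0.21 (SE 0.11) for *Tap1* and 0.12 (SE 0.10) for *Tap2*. *Nlrc5*, the transactivator of MHC class I genes, had 561 and 458 in the controls and 604 and 529 in the mutants. Mutant 2 lay below control 1, and the log2 fold change was 0.16 (SE 0.15), and 0.01 without control 2. The immunoproteasome subunits did not overlap between groups, with *Psmb8* at 371 and 347 against 387 and 446 and *Psmb9* at 163 and 154 against 178 and 213. *Psmb9*, *Tap1*, *Psmb8* and *Tap2* are neighbours within 34.3 kb of chromosome 17 (34181987 to 34216321), and *Psmb9* and *Tap1* overlap there. Adjusted p for the 5 genes lay between 0.689 and 0.787, so none passed.

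The remaining 5 induced genes had a median of 0.32, and 0.16 without control 2, and the mutants lay above the controls in 4 of them, against 19.6% of all genes. *Ifi27* had 320 and 302 normalized counts in the controls and 375 and 343 in the mutants. *Ifi35* had 303 and 257 in the controls and 312 and 335 in the mutants. In both genes the mutants lay above the controls, with log2 fold changes of 0.21 (SE 0.13) for *Ifi27* and 0.21 (SE 0.15) for *Ifi35*. Without control 2 they were 0.16 and 0.09. *Xaf1*, a pro-apoptotic antagonist of XIAP, had 251 and 146 in the controls and 244 and 234 in the mutants. Control 1 was the highest library, and the log2 fold change of 0.32 (SE 0.29) was -0.07 without control 2. *Rtp4*, an RNA-binding antiviral protein, had 182 and 86 in the controls and 211 and 203 in the mutants. The groups did not overlap, and the log2 fold change was 0.72 (SE 0.38), or 0.18 without control 2.

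In level per kilobase of exon the members were not rare transcripts. Their median over the 4 libraries was 80.0 normalized counts per kilobase, against 54.0 over all genes tested. *Gbp2* was the highest at 303, ahead of *Ifi27* at 228 and *Samd9l* at 204. The lowest were *Gbp6* at 5.92, *Oasl1* at 9.49 and *Oas3* at 10.4. The antiviral effectors had the lowest group median, 34.5, and the ADP-ribosylation genes the highest, 155.

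**Figure D4:**
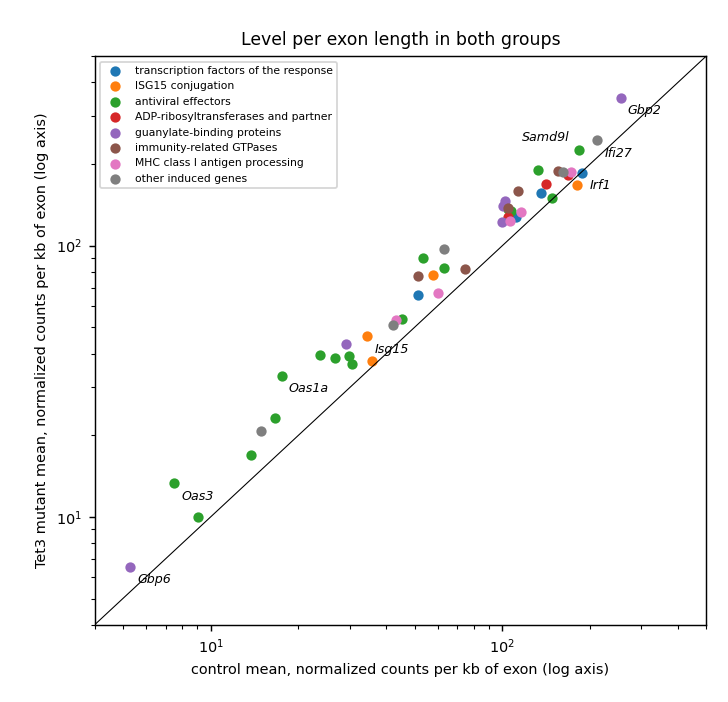
Mean level of each interferon-stimulated gene in the 2 control libraries (horizontal) and the 2 mutant libraries (vertical), in normalized counts per kilobase of exon on log axes, coloured by role, with a line of equality. The points lie above the line for 47 of 49 genes, by a median log2 fold change of 0.32, with *Irf1* on it and *Oas3* and *Oas1a* farthest above it.

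Upstream of the members, the median differences between the groups were near 0 with all 4 libraries. Of 21 interferon ligand genes sought by symbol, *Ifng* alone was found among the 21462 genes. It was at 4 and 2 normalized counts in the controls and 3 and 1 in the mutants, which was too low to test. Over the 6 receptor subunits the median log2 fold change was 0.09, with none past the adjusted test, and 0.03 without control 2. Both chains of the type I receptor were well expressed, *Ifnar1* at 1204 and 1048 against 1170 and 1173 and *Ifnar2* at 651 and 504 against 614 and 620. *Ifnlr1*, the type III receptor chain found mainly on epithelium, went the other way from the members in control 2, with 45 and 184 in the controls and 73 and 67 in the mutants. No receptor kinase passed the test, with *Jak1* at 2340 and 2111 against 2430 and 2232 and *Jak2* at 1035 and 1061 against 1080 and 1094. The 5 feedback inhibitors had a median of 0.03, with none past the test, and -0.08 without control 2. Among them the interferon-induced *Socs1* was lowest in control 2, at 127 and 57 against 96 and 105. The 4 other interferon regulatory factors had a median of 0.09, with none past the test, and 0.17 without control 2. Of these 4, *Irf5*, a factor of myeloid cells, had the largest log2 fold change, at 445 and 443 in the controls and 519 and 631 in the mutants.

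Markers of other cell types moved with the same library. All 11 T cell markers were lowest in control 2, with summed normalized counts of 1233 and 358 in the controls and 1292 and 1224 in the mutants. *Cd3e*, a subunit of the T cell receptor complex, had 114 and 27 in the controls and 132 and 115 in the mutants. The 5 tested NK cell markers were all lowest there too, with sums over the 6 listed genes of 216 and 60 against 146 and 218, and *Eomes* was at 0 in control 2. Summed B cell markers were 426 and 136 against 416 and 208, and control 2 was lowest for 4 of 5. Macrophage markers were lowest in control 2 for 11 of 13, with sums of 9181 and 7701 against 9656 and 11045. The alveolar macrophage genes *Chil3* (776 and 136 against 610 and 757), *Siglecf* (188 and 22 against 125 and 188) and *Marco* (119 and 17 against 77 and 82) were far lower in it. Of the other macrophage genes, *Fcgr1* (143 and 67 against 144 and 213), *Cd68*, *Adgre1*, *Mertk* and *Mrc1* were also lowest in control 2. The controls were nearly level in *Csf1r* (1484 and 1478 against 1707 and 1833) and *C1qb* (480 and 492 against 605 and 683). *Lyz2*, also on the macrophage list, was highest in control 2 (1120 and 1361 against 1197 and 1033). Which cells the *Lyz2* RNA came from was not tested. *Ptprc*, which encodes CD45, the antigen used for depletion, had 2136 and 1364 in the controls and 2674 and 1885 in the mutants, so leukocyte RNA remained in every library.

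Markers of structural cells differed in how control 2 stood. The 8 endothelial markers summed to 13945 and 13490 in the controls and 14944 and 14413 in the mutants, a nearly level amount, although control 2 was lowest for 7 of them. The 6 alveolar type 2 cell markers were highest in control 2, with sums of 10770 and 16406 against 7675 and 9761. Smooth muscle markers summed to 9716 and 10705 against 11986 and 11125, and control 1 had the lowest sum, of which *Mylk*, the marker that went the other way, made up a large part (5721 and 4705 against 5134 and 4476). Over the 10 smooth muscle markers the median log2 fold change was 0.52, and 0.85 without control 2, a larger difference than the median of the interferon-stimulated genes. In 7 of the 10 both mutants exceeded both controls, against 19.6% of all genes, and 4 had an unadjusted p under 0.05. The 5 neutrophil markers analysed were all lowest in control 2 too, with sums of 989 and 801 against 1873 and 1277, a median log2 fold change of 0.80, and 0.61 without that library. In all 5 both mutants exceeded both controls, and 4 were higher at an unadjusted p under 0.05 in limma (19.6% and 3.83% of all genes). The 5 dendritic cell markers summed to 1539 and 1680 against 1908 and 2622, and the 2 plasmacytoid markers to 148 and 110 against 213 and 192. No marker passed the adjusted test. The part of these cell types in the values of the interferon-stimulated genes was not tested.

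**Figure D5:**
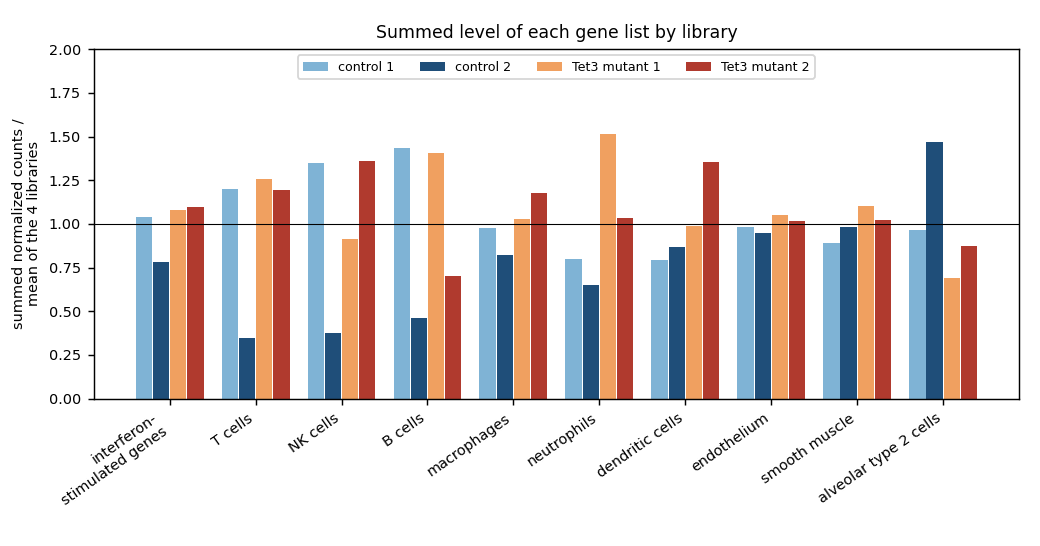
Bars give the summed normalized counts of each gene list in each library, divided by the list's mean over the 4 libraries. Control 2 is lowest for the interferon-stimulated genes, for the lymphocyte, macrophage and neutrophil markers and, by a small margin, for the endothelial markers. It is highest for alveolar type 2 cell markers.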

How the data were processed

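RNA of tdTomato-positive cells sorted from mouse lung was measured in 4 libraries, grouped by the genotype in their titles. Per the methods and the submitters' processing notes, libraries were ribosomal-depleted, stranded and single-end. Reads were trimmed (Trimmomatic 0.36), aligned to mm10 (GRCm38) with STAR 2.6.0c and counted over exons with featureCounts (Subread 1.6.0), leaving out reads of several places or genes. The use of strand in counting was not stated. The deposited values are a score, namely normalized counts that the authors scaled with DESeq2 and rounded, so they are not raw counts and no count model was applied, although the study used one.

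Deposited totals were 7003231 and 7164573 in the controls and 6893578 and 6805272 in the mutants. Library factors were estimated from gaps among low values. Genes with a mean of at least 10 were tested on log2(value + 1) with limma 3.58.1 in R 4.3.3 (lmFit, eBayes with trend, two-sided, Benjamini-Hochberg over 16659 genes, threshold 0.05). On this scale, fold changes of genes with low values come out too small. The fit was tested on simulated data, with an outcome that is not given here. Exon lengths came from GENCODE M21, where 48 of 49 members had the table's coordinates. The members, role groups, pathway and marker lists were chosen with earlier results of these data known. Members given with all library values were, in each role group, the 3 of highest mean, the one of smallest p and any with p under 0.05 (27 genes). Others named with values were chosen after these were seen. Alternatives were the pseudocount, the minimum mean, the scaling, the trend, the replicate block and each library left out. One list of the pathway, the kinases with their signal transducers, is not reported here as a whole.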

Additional observations from a re-analysis of the deposited data

How the results depend on the processing

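No interferon-stimulated gene passed the adjusted threshold under any alternative: pseudocounts of 0.5 and 8, minimum means of 1 and 50, equal totals, quantile normalization, no trend, the replicate block, or a library left out. Over all genes 0 passed, except that 1 did without the trend. With libraries left out in turn, the members' median log2 fold change ranged from 0.10 (without control 2) to 0.66 (without control 1). The members higher in both mutants ranged from 23 (without control 2, with 32.5% of all genes) to 47 (without control 1, with 39.8%). Those lower ranged from 0 to 5 (without control 2). The share of all genes in that setting is not given here, so the 5 cannot be read as a result. With all 4 libraries 0 members were lower, against 19.5% of all genes. Where one library remains in a group, it is assumed to vary like the other group.

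Of 27 genes followed, 19 kept their direction whichever library was left out. The others ranged from -0.0411 to 0.00965 (*Irf1*), -0.13 to 0.29 (*Herc6*), -0.34 to 0.52 (*Ifit2*), -0.00844 to 0.26 (*Parp14*), -0.0836 to 0.41 (*Irgm1*), -0.0236 to 0.66 (*Irgm2*), -0.0235 to 0.97 (*Iigp1*) and -0.0707 to 0.71 (*Xaf1*). Of the other alternatives, equal totals (0.0327) and quantile normalization (0.0229) reversed *Irf1*. The cause was not tested. With equal totals the median of all genes was 0.04, the members' was 0.37, and both mutants exceeded both controls in 29 members and 25.3% of genes.

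Same-numbered libraries showed a correlation of deviations of 0.134, which does not establish a pairing. With 2 libraries a group both pairs must give the same value, so it is a single value. With the replicate block the members' median stayed 0.32, 0 genes passed, and the smallest adjusted p of a member was 0.451. With 2 libraries a group, a median standard error of 0.27 limits what could be resolved.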

Other observations

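Genes that the deposited table annotates to an interferon response, and that were not among the 49, were looked at after the data were seen. Of 17 others tested under response to interferon-beta, 14 had a log2 fold change above 0, with a median of 0.16, and 0.09 without control 2. Control 2 was the lowest library for 11 of them. An unadjusted p under 0.05 was reached by 3 (*Ifi209*, *Ifi203* and *Sting1*, all higher in the mutants, as 3.83% of all genes were) and the adjusted threshold by 0. Of 43 others under response to interferon-gamma, many of them chemokines, 36 were above 0, with a median of 0.18, and 0.10 without control 2. Control 2 was lowest for 27, and 6 were higher and 1 lower at an unadjusted p under 0.05 (3.83% and 2.85% of all genes), with 0 past the adjusted threshold.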
